A study of Mus musculus with 4 samples.

Results

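The 10 genes described here make and sense eicosanoids, the signalling lipids built from arachidonic acid. They were chosen by symbol from a table of 18021 mouse genes, all 10 were found, and all 10 passed the filter of a mean of at least 1 FPKM that left 11041 genes for testing. FPKM is the number of sequenced fragments per kilobase of transcript and per 1e6 fragments, so levels can be compared between genes. The cells were dendritic cells grown from C57BL/6 mice for 5 days with GM-CSF and IL4 and then matured with lipopolysaccharide (LPS), 100 ng/ml over 24 h. These conditions were shared by every group. The matured cells were transfected with si-NC, the siRNA used for comparison, or with si-Lnc-Dpf3, which by its name targets lnc-Dpf3, a long non-coding RNA. Afterwards they stayed unstimulated or received CCL19 plus CCL21, the ligands of the chemokine receptor CCR7 and here called CCR7L, for 12 h. There is 1 library for each of the 4 combinations, hence no replicate of any group, and depletion of lnc-Dpf3 was not analysed here. The labels give no number of mice and do not say whether cells were pooled.

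Arachidonic acid is turned into leukotrienes or into prostaglandins. On the leukotriene side, 5-lipoxygenase (Alox5) works with its activating protein FLAP (Alox5ap) to make leukotriene A4. Leukotriene A4 hydrolase (Lta4h) converts this to leukotriene B4, whose receptor BLT1 (Ltb4r1) guides neutrophils and other leukocytes, while leukotriene C4 synthase (Ltc4s) joins it to glutathione to start the cysteinyl leukotrienes. On the prostaglandin side, the cyclooxygenases COX-1 (Ptgs1) and COX-2 (Ptgs2) make prostaglandin H2, and the microsomal synthase Ptges turns this into prostaglandin E2. Prostaglandin E2 acts through receptors that include EP2 (Ptger2) and EP4 (Ptger4). In dendritic cells prostaglandin E2 is known for promoting CCR7-dependent migration, and COX-2 is known as the LPS-inducible cyclooxygenase.

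Promoter windows are shown for both cyclooxygenase genes, whose FPKM differed in opposite directions between the siRNAs, and for Ltb4r1, which shares a motif with Ptgs1. The windows are from RefSeq for GRCm38.p6 and run from 250 bases before to 50 bases after an annotated start, 300 bases in all. For Ptgs1 this start, 36230426, lies inside the gene span given below, which begins at 36216742. Capitals mark matches, on either strand, to the core of the cAMP response element (TGACGT), to the E-box (CACGTG), or to the C/EBP motif (TTGCGCAA). They also mark the PU.1 motif (GAGGAAGT), and both the AP-1 motif (TGANTCA) and the TATA box (TATAAA) were searched.
Ptgs1, chr2:36230176-36230475, plus strand: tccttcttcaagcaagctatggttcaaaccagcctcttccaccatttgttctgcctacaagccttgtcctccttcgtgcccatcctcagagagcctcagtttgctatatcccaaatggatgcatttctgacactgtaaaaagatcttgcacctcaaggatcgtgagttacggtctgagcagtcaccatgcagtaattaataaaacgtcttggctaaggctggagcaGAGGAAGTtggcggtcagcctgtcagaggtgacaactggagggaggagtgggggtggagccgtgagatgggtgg
Ltb4r1, chr14:55765712-55766011, plus strand: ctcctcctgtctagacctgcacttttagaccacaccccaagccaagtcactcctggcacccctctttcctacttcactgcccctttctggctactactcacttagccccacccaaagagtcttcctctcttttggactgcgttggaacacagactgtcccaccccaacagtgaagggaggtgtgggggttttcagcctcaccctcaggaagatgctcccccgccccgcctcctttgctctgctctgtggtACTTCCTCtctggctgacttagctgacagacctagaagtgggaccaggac
Ptgs2, chr1:150099781-150100080, plus strand: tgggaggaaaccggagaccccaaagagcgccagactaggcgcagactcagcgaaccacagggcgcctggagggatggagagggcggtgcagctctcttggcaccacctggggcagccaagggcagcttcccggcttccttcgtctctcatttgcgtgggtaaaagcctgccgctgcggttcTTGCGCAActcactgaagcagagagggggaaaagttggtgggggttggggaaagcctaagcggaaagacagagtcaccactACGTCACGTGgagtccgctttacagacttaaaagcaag
The windows of Ptgs1 and Ltb4r1 each held GAGGAAGT, which 3.20% of 32817 promoter windows in the same table hold. No other available window of the 10 genes held it, including that of Lta4h. In that of Ptgs2 there was TTGCGCAA, found in 0.183% of all windows. TGACGT, found in 7.51% of all windows, and CACGTG, found in 7.15%, were also present there and overlapped each other. A window was available for 9 of the 10 genes, and none of the 9 held TGANTCA (7.81% of all windows) or TATAAA (13.6%). Sp1 motifs, GGGCGG, were present in 5 of 9 windows and in 35.6% of all, and are not capitalised. A match is a run of letters and was not tested as a binding site.

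All 10 mRNAs were measured in every library, and Alox5ap stood far above the others. Its level of 159 to 181 FPKM, with a mean of 169, exceeded that of 95.8% of the tested genes. Lta4h followed at 46.5 to 66.2 FPKM, Ptgs2 at 36.3 to 46.8, Alox5 at 36.3 to 43.2 and Ptger4 at 37.9 to 40.3. The ranges of Ptgs2, Alox5 and Ptger4 overlapped, and the top of the Ptgs2 range reached the bottom of that of Lta4h, so their order depends on the library. Next came Ptges at 29.0 to 35.7 FPKM and Ptgs1 at 23.0 to 34.2 FPKM, again with overlapping ranges. Ltc4s at 14.97 to 20.6 FPKM and Ltb4r1 at 13.3 to 17.1 FPKM also overlapped. Ptger2 was the lowest at 4.44 to 4.96 FPKM, so that EP4 mRNA exceeded EP2 mRNA by 8.13 to 8.92 times per length in each library.

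**Figure D1:**
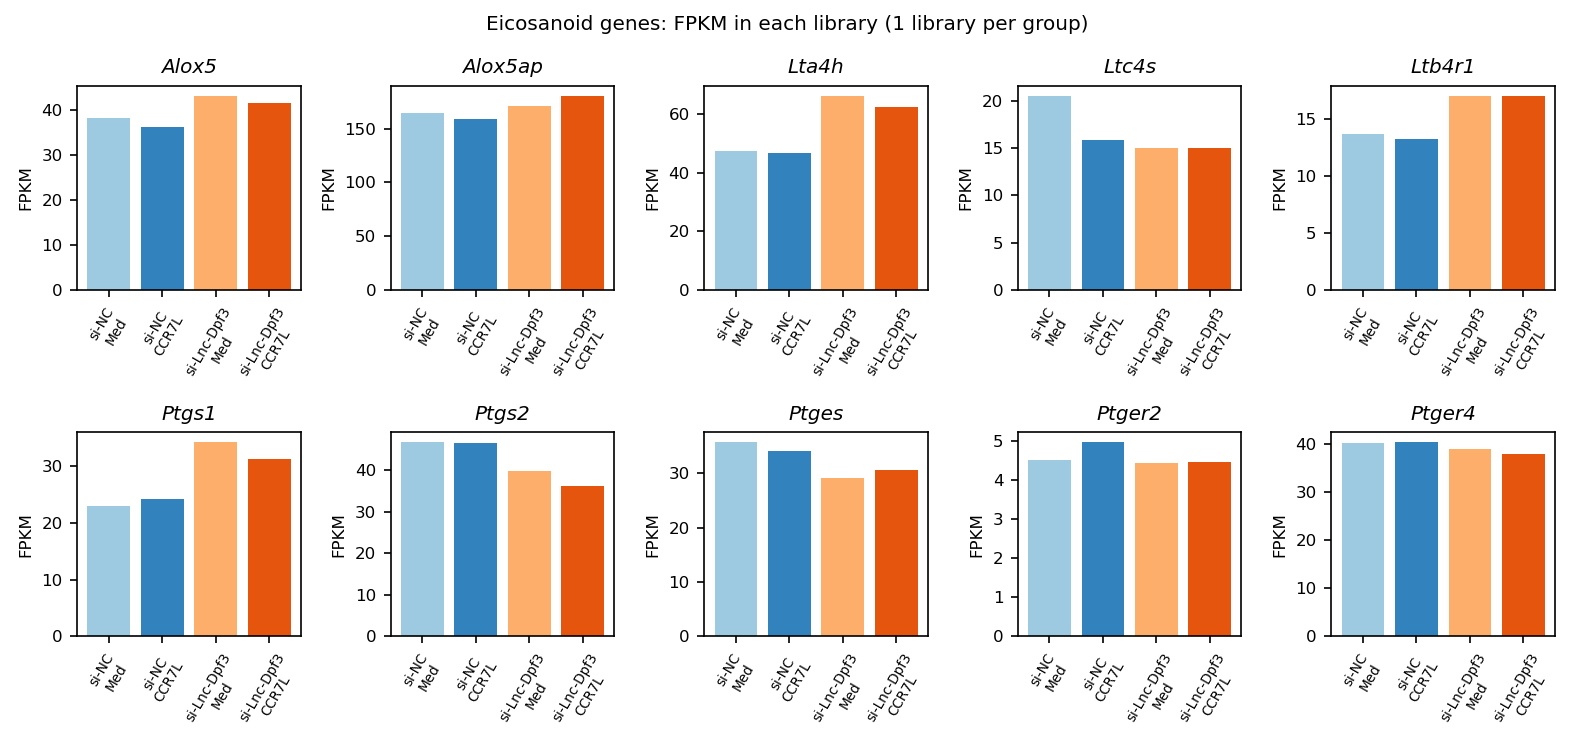
FPKM of the 10 genes in each of the 4 libraries, with 1 bar per library, no error bars because no group has a replicate, and a y axis in FPKM from 0 that differs between panels. For Lta4h both si-Lnc-Dpf3 bars, 66.2 and 62.4 FPKM, stand above both si-NC bars, 47.4 and 46.5 FPKM, whereas for Ptgs2 the si-Lnc-Dpf3 bars are the lower pair.

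Averaged over both stimulations, 3 of the 10 genes rose with si-Lnc-Dpf3 relative to si-NC, Lta4h, Ptgs1 and Ltb4r1, and 1 fell, Ptgs2 (limma, adjusted p under 0.05 over 11041 genes). Of all 11041 tested genes 4.37% were called, 2.33% higher and 2.04% lower. With median-ratio scaling 6 of the 10 were called, 3 higher and 3 lower, as Ltc4s and Ptges then passed too. In that setting 788 of all 11041 genes were called, 354 higher and 434 lower. The median average log2 change was 0.026 over the 10 genes and 0.015 over all genes, since the 10 divide into 5 above and 5 below zero. The test fits siRNA and stimulation additively, which leaves 1 residual degree of freedom, the interaction, and borrows its spread across genes. It therefore does not measure the spread between replicate cultures, and any other difference common to the pair of libraries that received 1 siRNA cannot be told apart from the effect. All 4 calls were lost without the filter on low genes (adjusted p 0.46), without limma's mean-variance trend (0.053 to 0.12) and with the siRNA as the only factor (0.18 to 0.27).

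Lta4h, on chromosome 10 (93453396 to 93484896, GRCm38), measured 47.4 FPKM (si-NC) and 66.2 FPKM (si-Lnc-Dpf3) in unstimulated cells, and 46.5 FPKM (si-NC) and 62.4 FPKM (si-Lnc-Dpf3) after CCR7L. Both si-Lnc-Dpf3 libraries lay well above both si-NC libraries. The ratio of si-Lnc-Dpf3 to si-NC was 1.40 in unstimulated cells and 1.34 under CCR7L. Averaged over both stimulations, the hydrolase mRNA rose by 0.44 ± 0.06 on the log2 scale (SE, limma adjusted p = 0.0046).

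The leukotriene B4 receptor gene Ltb4r1, on chromosome 14 (55765962 to 55768492), followed the same order at a lower level. Unstimulated si-NC cells gave 13.7 FPKM and CCR7L-treated si-NC cells 13.3 FPKM, and each si-Lnc-Dpf3 library gave 17.1 FPKM. The groups did not overlap, and the average log2 change was 0.32 ± 0.07 (SE, limma adjusted p = 0.040). The second leukotriene B4 receptor gene, Ltb4r2, had 0.70 to 1.03 FPKM and fell below the filter.

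Upstream of both, neither Alox5 nor Alox5ap passed the test. Alox5, on chromosome 6 (116410071 to 116461178), measured 38.2 and 36.3 FPKM with si-NC and 43.2 and 41.7 FPKM with si-Lnc-Dpf3, unstimulated and with CCR7L in turn. Its groups did not overlap, but the average log2 change of 0.19 ± 0.06 did not pass (SE, limma adjusted p = 0.14). Alox5ap, on chromosome 5 (149265004 to 149288153), measured 164 and 159 FPKM with si-NC and 171 and 181 FPKM with si-Lnc-Dpf3. The average log2 change of this abundant mRNA was 0.12 ± 0.07 (limma adjusted p = 0.40), which did not pass either. GENCODE places 189 of its 1420 exon bases on an antisense gene, Gm19719. Whether the counting used strand is not given in the sources used here. Exon bases here and below join all GENCODE transcripts of a gene, which can exceed the transcripts behind the FPKM.

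Ltc4s, which opens the cysteinyl leukotriene branch, did not follow Lta4h. On chromosome 11 (50236461 to 50238532), it measured 20.6 FPKM (si-NC) and 14.97 FPKM (si-Lnc-Dpf3) in unstimulated cells, and 15.9 FPKM (si-NC) and 15.05 FPKM (si-Lnc-Dpf3) after CCR7L. The si-NC unstimulated library was high, and the other 3 lay close together. Its average si-Lnc-Dpf3 log2 change was -0.25 ± 0.09 (limma adjusted p = 0.17, and 0.042 with median-ratio scaling), and -0.08 with the siRNA as the only factor and the si-NC unstimulated library left out. The transcript is short, with a median of 564.5 bases, so only about 166 to 227 fragments stand behind each value. Of its 1014 exon bases 268 are shared with the antisense gene Gm26542.

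Among the cyclooxygenases, Ptgs1 rose and Ptgs2 fell with si-Lnc-Dpf3. Ptgs1, on chromosome 2 (36216742 to 36258593), measured 23.0 FPKM (si-NC) and 34.2 FPKM (si-Lnc-Dpf3) in unstimulated cells, and 24.3 FPKM (si-NC) and 31.2 FPKM (si-Lnc-Dpf3) after CCR7L. Both si-Lnc-Dpf3 libraries were the higher pair. The COX-1 ratio was 1.49 in unstimulated cells and 1.29 under CCR7L, and the average log2 change was 0.45 ± 0.07 (SE, limma adjusted p = 0.0094). Of its 3884 exon bases 148 lie on Gm43621, on the other strand. Ptgs1 spanned the widest range of the 10 genes on the log2(FPKM + 1) scale, 0.55.

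Ptgs2, on chromosome 1 (150100031 to 150108234), took the opposite order. The COX-2 mRNA measured 46.8 and 46.6 FPKM with si-NC, unstimulated and with CCR7L, and 39.9 and 36.3 FPKM with si-Lnc-Dpf3. Both si-NC values were almost equal and the si-Lnc-Dpf3 values lay below both. The ratio to si-NC was 0.852 in unstimulated cells and 0.779 under CCR7L, and the average log2 change was -0.29 ± 0.065 (SE, limma adjusted p = 0.035). Only Lta4h and Ptgs1 had an adjusted p under 0.01, a stricter threshold added after seeing the data.

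Ptges, the inducible prostaglandin E synthase on chromosome 2 (30889471 to 30931020), lay in the same direction as Ptgs2 without passing. It measured 35.7 and 34.1 FPKM with si-NC and 29.0 and 30.6 FPKM with si-Lnc-Dpf3, unstimulated and with CCR7L in turn. The groups did not overlap, and the average log2 change was -0.22 ± 0.07 (SE, limma adjusted p = 0.11, and 0.031 with median-ratio scaling). The cytosolic synthase gene Ptges3 stood at 65.6 to 71.4 FPKM and Ptges2 at 7.23 to 8.35 FPKM. Neither passed the test for the siRNA or for CCR7L.

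Among the 10 genes, Ptger4 and Ptger2 had the smallest average differences between the siRNAs. Ptger4, on chromosome 15 (5233399 to 5244187), measured 40.2 and 40.3 FPKM with si-NC and 38.9 and 37.9 FPKM with si-Lnc-Dpf3. Ptger2, on chromosome 14 (44988111 to 45003820), measured 4.51 and 4.96 FPKM with si-NC and 4.44 and 4.45 FPKM with si-Lnc-Dpf3. Neither passed, with average log2 changes of -0.07 ± 0.06 for Ptger4 (limma adjusted p = 0.64) and -0.07 ± 0.10 for Ptger2 (0.76). In both genes the si-Lnc-Dpf3 values were the lower pair, but the unstimulated difference changed sign with the scaling, with log2 ratios of 0.005 for Ptger4 and 0.025 for Ptger2 once the libraries were set to equal totals. On the other strand, Ptger4 shares 1015 of its 6648 exon bases with the pseudogene Gm15937, and Ptger2 shares 246 of 5193 with the antisense gene Gm17173. The GENCODE exons of Ptger4 begin at 5206661, outside the span given above, so the overlap may lie outside the counted transcript.

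Taking the order of the libraries alone, 5 of the 10 genes had both si-Lnc-Dpf3 values above both si-NC values and the other 5 had both below. Of all tested genes 24.8% were arranged the first way and 15.7% the second. Against counting error, estimated from the depth, 7 of 10 ratios between the siRNAs passed the 95% limit in unstimulated cells and 8 of 10 under CCR7L. The same held for 44.9% and 34.2% of 10863 genes. No ratio reached 2-fold in either comparison, where 0.0906% and 0.0725% of all tested genes did.

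**Figure D2:**
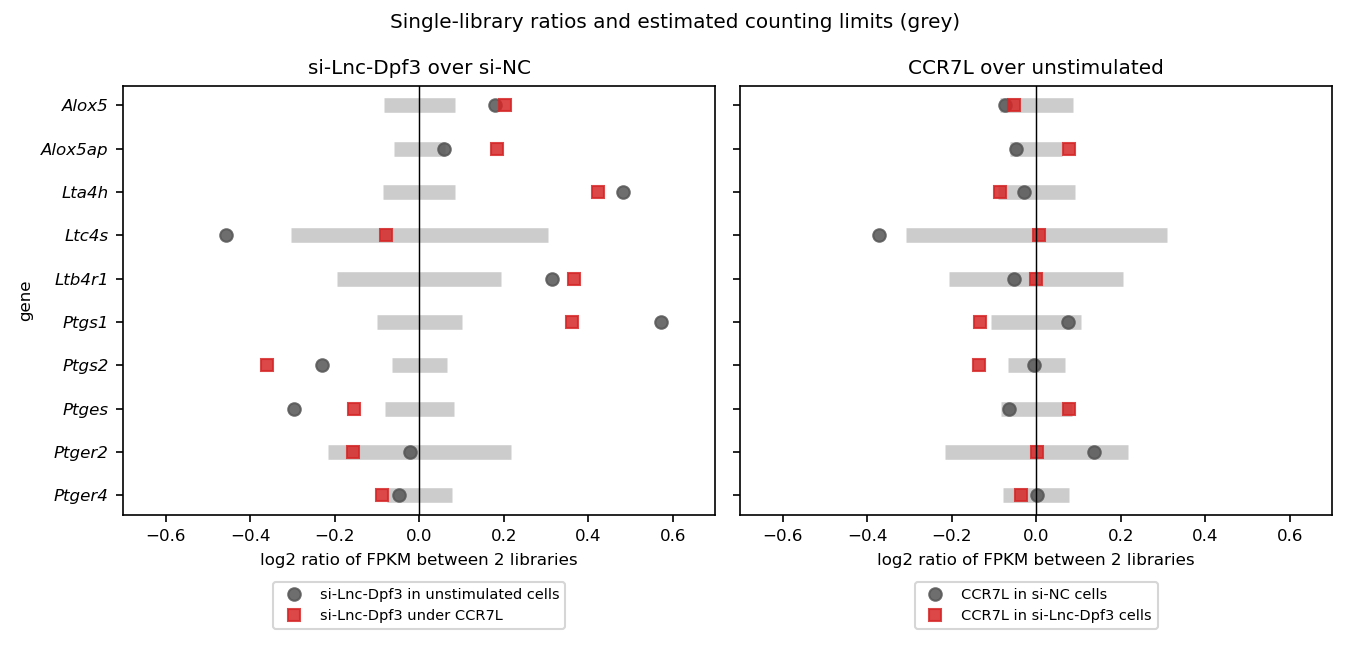
Log2 ratio of FPKM between single libraries for the 10 genes, for si-Lnc-Dpf3 over si-NC (left) and CCR7L over unstimulated (right), with grey bars for the wider estimated 95% counting limit of the 2 ratios in a panel. On the left 7 of 10 circles (unstimulated) and 8 of 10 squares (with CCR7L) lie beyond their own limits. On the right these numbers are 1 of 10 circles (si-NC) and 4 of 10 squares (si-Lnc-Dpf3).

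Within a library, the levels of competing enzymes can be set against each other. The FPKM of Ptgs2 was 2.03 times that of Ptgs1 unstimulated and 1.92 times after CCR7L where si-NC was used. With si-Lnc-Dpf3 it was 1.17 and 1.16 times. COX-2 mRNA therefore exceeded COX-1 mRNA in all 4 libraries, by less with si-Lnc-Dpf3. The FPKM of Lta4h was 2.31 and 2.93 times that of Ltc4s with si-NC, and 4.42 and 4.15 times with si-Lnc-Dpf3. For Alox5ap and Alox5 the ratio stayed between 3.96 and 4.39. These are ratios of the same single values given above, so they add no separate result, and they were not tested. The 2.31 for Lta4h to Ltc4s includes the high Ltc4s value of 20.6 FPKM in unstimulated si-NC cells.

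**Figure D3:**
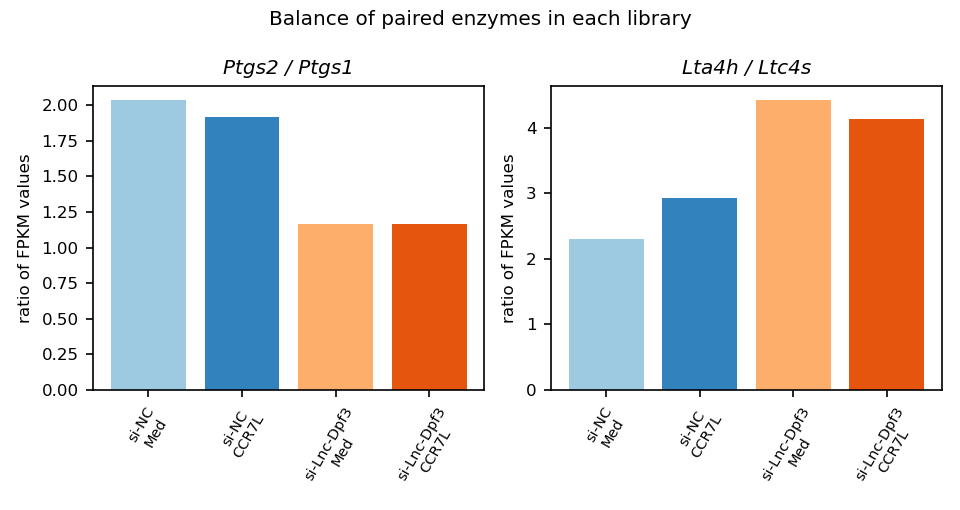
Ratio of FPKM values of Ptgs2 to Ptgs1 (left) and of Lta4h to Ltc4s (right) in each library, from 0, with 1 bar per library and no error bars. The Ptgs2 to Ptgs1 ratio is 2.03 and 1.92 for si-NC but 1.17 and 1.16 for si-Lnc-Dpf3, and the Lta4h to Ltc4s ratio is higher in the latter.

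With CCR7L, 0 of the 10 genes passed limma in the average effect, and 0 had an unadjusted p under 0.05. In the same test 6.04% of all genes were called, 2.93% higher and 3.11% lower, and 1772 of 11041 had an unadjusted p under 0.05. The CCR7L and unstimulated values overlapped for every one of the 10 genes. That was bound to be so, because in each of them both values of 1 siRNA lay above both values of the other. The overlap therefore says nothing about CCR7L. Over all tested genes, both CCR7L values lay above both unstimulated values in 16.2% and below in 21.5%. Average log2 changes ran from -0.17 ± 0.09 for Ltc4s (SE, limma adjusted p = 0.41) to 0.06 ± 0.10 for Ptger2 (0.84). Ptgs2 had -0.07 ± 0.065 (0.68) and Ptger4 -0.02 ± 0.06 (0.94). With si-NC, Ltc4s was the only one of 10 whose CCR7L ratio, 0.773, passed the counting limit, where 32.7% of 10863 genes did. With si-Lnc-Dpf3, 4 of 10 passed, against 43.8% of genes: Alox5ap at a ratio of 1.06, Lta4h at 0.943, Ptgs1 at 0.912 and Ptgs2 at 0.910. No ratio reached 2-fold, where 0.453% and 0.480% of all tested genes did.

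Other eicosanoid genes were read from a list of 52, of which 51 were in the table and 33 passed the filter. Averaged over both stimulations, 3 of 33 rose with si-Lnc-Dpf3 and 2 fell, and the median log2 change was -0.03. Of all 11041 tested genes 2.33% were called higher and 2.04% lower, with a median log2 change of 0.015. Pparg, a lipid-sensing nuclear receptor with eicosanoid derivatives among its ligands, measured 23.6 and 24.4 FPKM with si-NC and 35.6 and 31.5 FPKM with si-Lnc-Dpf3, a rise of 0.46 ± 0.07 in log2 (SE, limma adjusted p = 0.0089). Lpcat3, which places arachidonate into phospholipids, rose from 33.9 and 36.1 to 42.4 and 42.9 FPKM (0.28 ± 0.06, limma adjusted p = 0.037). Ptgr1, a reductase that inactivates prostaglandins and leukotriene B4, rose from 45.8 and 46.6 to 53.8 and 58.1 FPKM (0.27 ± 0.06, limma adjusted p = 0.038). These 3 rises thus include an enzyme acting on phospholipids and an enzyme of breakdown, and their effect on eicosanoid levels was not tested. GENCODE places 334 of the 3268 exon bases of Lpcat3 on Emg1, on the other strand.

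The genes that fell act later or on a related lipid. Dpep2, a dipeptidase that converts leukotriene D4 to leukotriene E4, fell from 14.1 and 12.8 FPKM to 10.1 and 9.67 FPKM, an average of -0.41 ± 0.08 in log2 (SE, limma adjusted p = 0.019). Pla2g7, which hydrolyses platelet-activating factor, fell from 129 and 108 FPKM to 100.2 and 84.8 FPKM, a log2 change of -0.35 ± 0.06 (limma adjusted p = 0.013). With the siRNA as the only factor and the si-NC unstimulated library left out, this value was -0.23. Pla2g7 was also the 1 gene of 33 called for CCR7L, where 0 rose, with a log2 change of -0.25 ± 0.06 (limma adjusted p = 0.042). Of all tested genes 6.04% were called for CCR7L, 2.93% higher and 3.11% lower. The list median for CCR7L was -0.03, against -0.02 over all genes. Of 2905 exon bases of Pla2g7, 319 are shared with the antisense gene 1700071M16Rik, and those of Dpep2 overlap Gm45752 by 474 and Dpep2nb by 241 of 4540. All of these calls were lost in the same 3 settings as those of the 10 genes, and the CCR7L change of Pla2g7 was -0.07 with stimulation as the only factor and either si-NC unstimulated or si-Lnc-Dpf3 with CCR7L left out.

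Several well expressed genes of the list passed in neither effect. Cytosolic phospholipase A2 (Pla2g4a), which frees arachidonate, measured 16.9 to 18.4 FPKM, the acyl-CoA synthetase gene Acsl4 27.4 to 30.2 and the leukotriene C4 exporter gene Abcc1 33.7 to 39.1. The lipid and peptide receptor gene Fpr2 measured 218 to 228 FPKM, the annexin gene Anxa1 177 to 198 and the prostacyclin receptor gene Ptgir 19.98 to 22.5. Akr1b3 measured 51.8 to 58.3, Cmklr1 29.1 to 33.5 and Cyp4f18, which oxidises leukotriene B4 in mouse, 29.8 to 32.2 FPKM. The cysteinyl leukotriene receptor gene Cysltr2 measured 2.90 and 2.68 FPKM with si-NC and 1.98 and 1.85 with si-Lnc-Dpf3 without passing (limma adjusted p = 0.067).

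**Figure D4:**
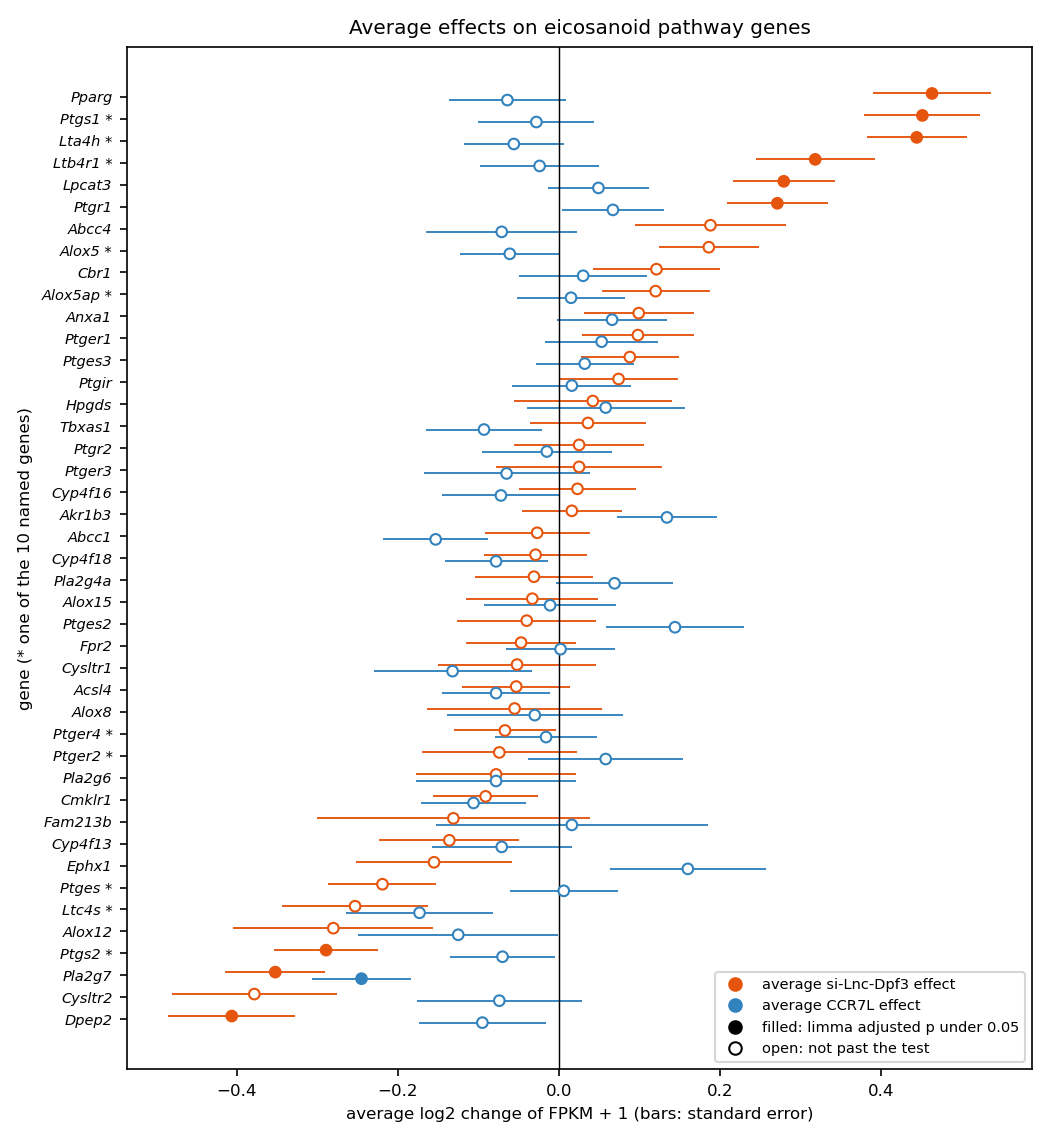
Average log2 change of FPKM + 1 with its standard error for the 10 genes (starred) and 33 other eicosanoid pathway genes, for si-Lnc-Dpf3 over si-NC (orange) and for CCR7L over unstimulated (blue), with filled points for a limma adjusted p under 0.05. Among the starred genes the filled orange points are Ptgs1 at 0.45, Lta4h at 0.44, Ltb4r1 at 0.32 and Ptgs2 at -0.29, and no starred gene has a filled blue point.

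In bulk RNA, fewer cells of a type and less RNA per cell cannot be told apart, and markers of several cell types differed between the siRNAs as well. All 10 mature dendritic cell markers reached 1 FPKM in every library. Their summed FPKM was 5954 and 7527 with si-NC and 4903 and 6974 with si-Lnc-Dpf3, and 4 of 10 fell while 0 rose in the average effect. Most of each sum was Ccl22, at 3040 to 5145 FPKM, which was not called for the siRNA or for CCR7L. Of all tested genes 2.33% were called higher and 2.04% lower in that effect. All 14 neutrophil lineage markers were present at 1 FPKM or more, with sums of 9353 and 9729 with si-NC and 13790 and 13920 with si-Lnc-Dpf3. Most of each sum was S100a8, S100a9 and Lcn2, none of them called for si-Lnc-Dpf3 (limma adjusted p = 0.054, 0.099 and 0.93). In that list 7 of 14 rose, Elane, Mpo, Prtn3, Ltf, Ngp, Camp and Cd177, and 0 fell. Ctsg, Cxcr2, Mmp8 and Ly6g were also not called. Platelet and megakaryocyte markers, all 5 at 1 FPKM or more, summed to 104 and 109 with si-NC and 82.0 and 75.2 with si-Lnc-Dpf3, and 2 of 5 fell. Mast cell and basophil markers, 8 or 9 of 10 at 1 FPKM, summed to 645 and 612.5 with si-NC and 558 and 575 with si-Lnc-Dpf3, and 1 of 8 tested fell. Macrophage markers, 6 to 8 of 8 at 1 FPKM, summed to 474.5 and 458 with si-NC and 400.0 and 401 with si-Lnc-Dpf3, and 1 of 7 tested fell. Eosinophil markers summed to 243 to 267 and T and B cell markers to 3.14 to 4.31, with no marker of any list at 0 in all 4 libraries. The part of these cell types in the eicosanoid results was not tested.

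The profile of Ptgs1 over the 4 libraries was set beside those of 11040 other genes by the distance between centred log2(FPKM + 1) values. The nearest was Kif20a, a kinesin gene of cell division, at a distance of 0.029, at 10.54 and 11.1 FPKM in the si-NC pair of libraries and 15.5 and 14.2 FPKM in the other pair. Pparg came next at 0.038, then Plppr3 at 0.043, the lamin B receptor gene Lbr at 0.045 and the mitotic kinesin gene Kif11 at 0.046. Within a distance of 0.1 lay 58 of the 11040 genes.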

How the data were processed

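FPKM values of 18021 genes in 4 libraries were deposited with 2 decimals, as named in the file headers. Bowtie2, RSEM and GRCm38 appear in the submitters' processing notes, and their versions were not given in the sources used here. Per the labels' protocols, TRIzol was used for extraction and BGISEQ-500 for sequencing. Columns were matched to groups by abbreviations in their names, read as nc or si for the siRNA and un or tr for the stimulation. Depth was estimated from how low FPKM values step, and was 20.6 to 21.0 in units of 1e6 fragments. At these depths 52.9% to 61.0% of 238 to 269 values were whole reads to within 0.1, where chance gives 20%, so reads were not recovered and no count test was run. Counting limits come from this estimate and GENCODE M21 transcript lengths, and cover counting error only.

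Values were analysed as log2(FPKM + 1), which understates changes of low genes, over the 11041 genes averaging 1 FPKM or more. The test was limma 3.58.1 in R 4.3.3 with additive terms for siRNA and stimulation, a trend of variance on mean, and p-values adjusted by Benjamini-Hochberg over all genes (threshold 0.05). It has 1 residual and 9.63 prior degrees of freedom. In simulated data with additive effects only, it recovered the largest changes put in. Every change put in was larger than the average changes of the 10 genes, so recovery of changes of their size was not tested. The share of false calls often exceeded the nominal level, so the adjusted p-values are approximate and too small on average. Single-library comparisons carry no test. The 10 genes, the list of other eicosanoid genes and the marker lists were chosen with earlier results of these data known. Of the other pathway genes, those past the test in either effect or with a mean of at least 20 FPKM are named, as are the 5 genes nearest in profile to the member of widest range; Ltb4r2, Ptges2, Pla2g4a and Cysltr2 were added after their values were seen. Of the genes this rule names, 1 is not reported here. Alternatives were another pseudocount (0.1), no filter, equal totals, median-ratio scaling, no trend, a single-factor fit, that fit without each library, and a threshold of 0.01.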

Additional observations from a re-analysis of the deposited data

Results flagged for a closer look

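The CCR7L difference of 5 of the 10 genes had opposite signs under the 2 siRNAs, and each sign rests on 1 library per group, so the difference was not tested. The share of all genes with opposite signs was not counted, so the number says nothing particular about these genes. Given for si-NC first and si-Lnc-Dpf3 second, the log2 ratio of CCR7L to unstimulated cells was -0.352 and 0.007 for Ltc4s. It was 0.073 and -0.129 for Ptgs1, -0.047 and 0.078 for Alox5ap, -0.063 and 0.076 for Ptges, and 0.003 and -0.036 for Ptger4. Under si-NC, the ratio of Ltc4s alone among these 5 passed the estimated counting limit, and under si-Lnc-Dpf3 those of Alox5ap and Ptgs1 did. The signs depend on the scaling. With equal totals Ltc4s had -0.358 and -0.065 and Ptger4 -0.002 and -0.111, the same sign under both siRNAs, and the si-Lnc-Dpf3 values of Alox5ap and Ptges were 0.002 and 0.001.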

How the results depend on the processing

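The si-Lnc-Dpf3 direction of each of the 10 genes was the same in the average effect under every alternative run, but its calls were not. Of 4 called genes, 0 passed limma without a filter on low genes (5 of the 10 at an unadjusted p under 0.05), 0 without the trend (7 unadjusted), 0 with the siRNA as the only factor (6 unadjusted) and 0 in that fit without any 1 library (4 to 5 unadjusted). Over all genes, limma gave an unadjusted p under 0.05 to 1939 of 18021 without the filter. Of the 11041 tested genes it did so for 1804 without the trend and 1152 with the siRNA as the only factor. With median-ratio scaling 6 of the 10 genes passed. With a threshold of 0.01, 2 remained past it, Lta4h and Ptgs1. Over all genes, 482 were called for si-Lnc-Dpf3, 257 higher and 225 lower, against 850 with equal totals (503 higher, 347 lower), 788 with median-ratio scaling (354 higher, 434 lower), 77 without the trend, 91 at 0.01, 1 in the single-factor fit, 0 without a filter (1939 unadjusted) and 0 with any 1 library left out of the single-factor fit (520 to 1445 unadjusted). For CCR7L, 667 were called, 324 higher and 343 lower, against 900 with equal totals (349 higher, 551 lower), 920 with median-ratio scaling (516 higher, 404 lower), 349 at 0.01, 238 in the single-factor fit, 89 to 170 in that fit with 1 library left out and 0 without a filter (2036 unadjusted). Genes at least 2-fold different with a pseudocount of 0.1 numbered 93 for CCR7L under si-NC, 115 for CCR7L under si-Lnc-Dpf3, 27 for si-Lnc-Dpf3 in unstimulated cells and 22 under CCR7L, against 50, 53, 10 and 8. None of the CCR7L changes of the 10 genes passed, and several changed sign. With equal totals they were -0.026 for Alox5ap and -0.034 for Ptges, and with median-ratio scaling 0.002 for Ptger4. Leaving out 1 library gave a range from -0.16 to 0.037 for Alox5, -0.076 to 0.107 for Alox5ap, -0.292 to 0.181 for Lta4h, -0.304 to 0.248 for Ptgs1, -0.246 to 0.107 for Ptgs2, -0.138 to 0.15 for Ptges, -0.007 to 0.122 for Ptger2, -0.06 to 0.027 for Ptger4, -0.389 to 0.044 for Ltc4s and -0.195 to 0.147 for Ltb4r1. That fit leaves out the siRNA, so these ranges also hold its effect; the cause of the other changes was not tested. No paired analysis was possible because each group has 1 library and the labels carry no replicate numbers.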
